A study of Homo sapiens and Mus musculus with 4 samples.

Results

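The genes described here are the 9 that encode the 3 subunits of the translation initiation factor eIF2, the 4 kinases that phosphorylate it and the 2 regulatory subunits that direct its phosphatase. They were followed through the ATF4 peaks of KG1a, a cell line from a human acute myeloid leukaemia, grown with 20% serum. A peak was taken as belonging to a gene where it overlapped the gene span plus 10 kb on each side. By this rule 2 of the 9 genes had a peak, EIF2S2 and EIF2S3, with 1 peak each, out of 873 KG1a peaks in all. Among all protein-coding genes 632 of 20037, or 3.15%, had a peak by the same rule. The genes were chosen by their role before ATF4 in the pathway and by the known KG1a peaks at a gene end of EIF2S2 and EIF2S3. The count of 2 is thus a description, and nothing is read from its difference to that share.

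The series holds 4 libraries of chromatin immunoprecipitation sequencing (ChIP-seq), with 1 library in each group. These are an anti-ATF4 precipitate of KG1a cells with the KG1a input, and an anti-ATF4 precipitate of bone marrow cells of C57BL/6 mice with its input. Input is chromatin sequenced without antibody. The labels give no treatment, and no age or number for the mice. Each ChIP library was set against its input to give 1 list of peaks, with 873 peaks for KG1a and 83088 for mouse bone marrow. The mouse orthologues of the 9 genes were not analysed here. The lists give the chromosome, start and end of each peak and no height, so the read depth is unknown, and with 1 library in each group no difference here has a replicate check. Peak positions carry no expression, so the cell labels could not be checked against marker genes.

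As background, eIF2 carries the initiator methionyl-tRNA to the small ribosomal subunit. When a kinase phosphorylates its alpha subunit, eIF2 blocks its own exchange factor eIF2B, most translation slows, and the ATF4 message, which has short upstream reading frames, is translated more. A phosphatase with a PPP1R15 subunit removes the phosphate again. The 9 genes thus act before ATF4 in this pathway, and the KG1a list shows which of them had a listed ATF4 peak themselves.

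EIF2S3 encodes the gamma subunit of eIF2, which binds GTP and the initiator tRNA. Its peak spanned chrX:24054386-24054819 (GRCh38, the build of all positions here) and was 434 bp wide. EIF2S3 (gene ID 1968) runs on the plus strand over chrX:24054956-24078810, so the peak lay wholly before the start of the gene. Its near edge was 137 bp and its far edge 570 bp from that start, and it covered no base of the gene. No other annotated gene of any kind lay within 10 kb of this peak. The 250 bases before the EIF2S3 start, chrX:24054706-24054955 on the plus strand, are shown because they hold the near part of the peak. The 114 bases in capitals lie inside the peak and the rest lies between the peak and the start (RefSeq, GRCh38.p14).
EIF2S3: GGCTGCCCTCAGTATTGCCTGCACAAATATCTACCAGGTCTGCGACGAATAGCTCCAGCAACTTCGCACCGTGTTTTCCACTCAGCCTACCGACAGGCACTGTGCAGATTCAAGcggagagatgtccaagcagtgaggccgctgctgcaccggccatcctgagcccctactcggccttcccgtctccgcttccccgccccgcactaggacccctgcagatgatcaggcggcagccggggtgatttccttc

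EIF2S2 encodes the beta subunit, which contacts eIF5 and eIF2B. Its peak spanned chr20:34111981-34112472 and was 492 bp wide. EIF2S2 (gene ID 8894) covers chr20:34088309-34112243, and the peak lay across the high-coordinate end of the gene. It covered 263 bp of the gene and 229 bp beyond it, with its centre 16.5 bp inside the end. The tables used for positions gave no strand for EIF2S2. General knowledge of the gene places it on the minus strand, which would make this end its start. The other annotated feature within 10 kb of this peak was RPS2P1, a ribosomal protein pseudogene 9.87 kb away. The peaks of both genes thus sat at a gene end, EIF2S2's across it and EIF2S3's before it.

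**Figure D1:**
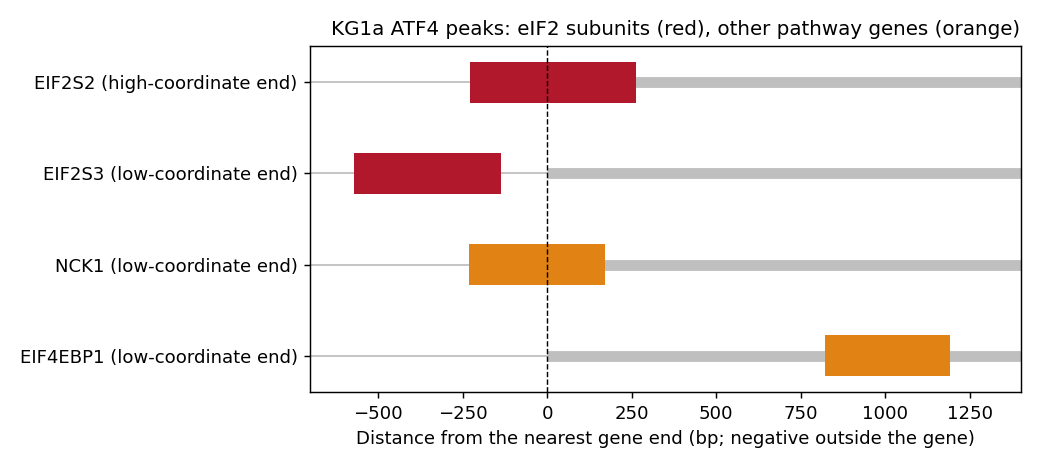
KG1a ATF4 peaks (coloured bars) at the nearest end of 4 genes, with distance from that end in bp on the horizontal axis, negative outside the gene. Thick grey lines are the gene and the dashed line its end. The EIF2S2 and NCK1 peaks cross the end, the EIF2S3 peak stops 137 bp outside it, and the EIF4EBP1 peak begins 822 bp inside.

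EIF2S1 encodes the alpha subunit, the one that the kinases phosphorylate, and had no peak within 10 kb. Its nearest peak lay 614 kb from the gene, inside GPHN, which encodes the scaffold protein gephyrin. Of all protein-coding genes with a peak on their chromosome, 37.3% had a peak as near or nearer. Of the 3 subunit genes, EIF2S2 and EIF2S3 had a peak at a gene end and EIF2S1 had none in its neighbourhood.

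None of the 4 eIF2 kinase genes had a peak within 10 kb. EIF2AK1 encodes HRI, the kinase that responds to low haem in red cell precursors, and its nearest peak lay 597 kb away, 638 bp outside TNRC18. EIF2AK4 encodes GCN2, which senses uncharged tRNA, and its nearest peak lay 917 kb away. That peak, 753 bp wide and in place 7 of the list, is the one at CHAC1, which encodes an enzyme that degrades glutathione. EIF2AK2 encodes PKR, which responds to double-stranded RNA, and its nearest peak lay 1.16 Mb away, inside ATL2. EIF2AK3 encodes PERK, the kinase of endoplasmic reticulum stress, and its nearest peak lay 6.58 Mb away. The median of the 4 kinase distances was 1.04 Mb, and the median over all 19974 protein-coding genes with a peak on their chromosome was 0.961 Mb. The kinases spread over this range, since the share of genes as near or nearer was 36.6% for EIF2AK1, 48.7% for EIF2AK4, 56.0% for EIF2AK2 and 93.4% for EIF2AK3.

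The phosphatase subunit genes had no peak within 10 kb either, but lay closer to one than the kinases did. PPP1R15B encodes CReP, the subunit made without stress, and its nearest peak lay 94.9 kb away. That peak is 459 bp wide, stands in place 85 of the list and lies 9.19 kb from MDM4, which encodes a p53 inhibitor. PPP1R15A encodes GADD34, the subunit that stress induces, and its nearest peak lay 226 kb away, 150 bp from CA11. The share of genes as near or nearer was 9.63% for PPP1R15B and 17.8% for PPP1R15A. Around the 10 kb limit, EIF2S3 at 137 bp was the farthest gene inside it and PPP1R15B the nearest outside it. The median distance was 597 kb over the 9 genes and 614 kb over the 7 without a peak within 10 kb. It was 961 kb over all protein-coding genes with a peak on their chromosome. EIF2S2 and EIF2S3 were chosen with their peaks known, so nothing is read from these differences.

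**Figure D2:**
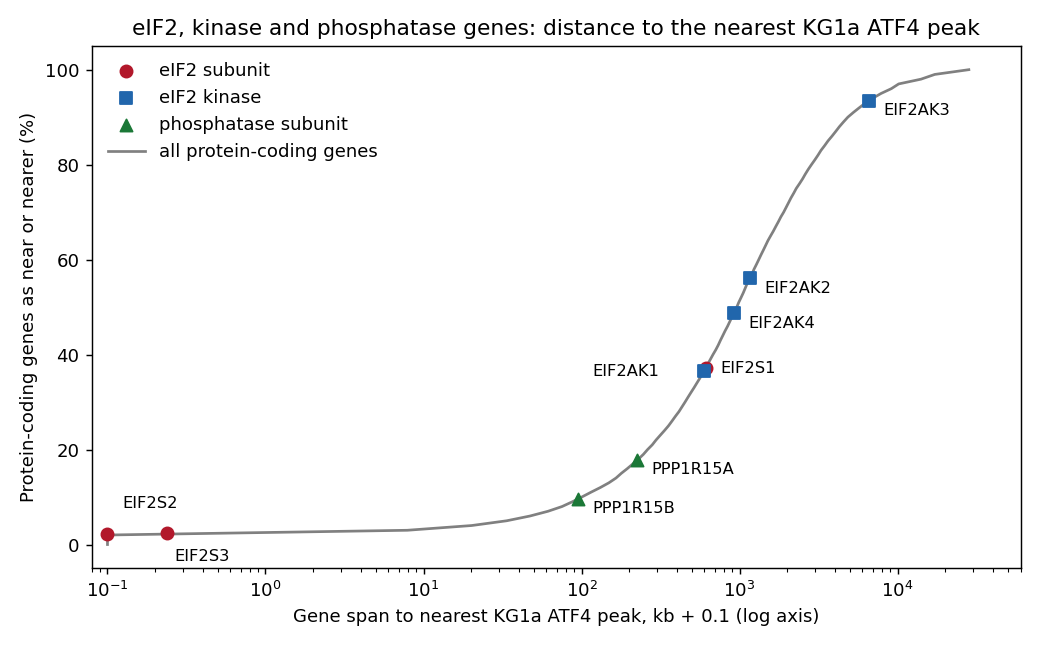
Distance of each of the 9 genes to its nearest KG1a ATF4 peak in kb (log axis, 0.1 kb added so that an overlap can be drawn) against the percentage of protein-coding genes that are as near or nearer. Circles are eIF2 subunits, squares kinases, triangles phosphatase subunits and the grey line all protein-coding genes. EIF2S2 and EIF2S3 stand apart at the left, at 0 and 0.137 kb, and the other 7 genes lie between 94.9 kb and 6.58 Mb.

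The rule used neither the width of the peaks nor their place in the deposited list, and these are given as descriptions. The EIF2S2 peak, with 492 bp, ranked 55 by width among the 869 peaks on chromosomes, and the EIF2S3 peak, with 434 bp, ranked 81. The lower quartile, median and upper quartile of all these widths were 323, 341 and 371 bp. Both peaks were thus wider than most of the list. Among the 89 peaks centred within 1 kb of a gene end, whose median width was 352 bp, they ranked 15 and 22. The EIF2S3 peak stood in place 19 of the list and the EIF2S2 peak in place 224. Counting gene-end peaks alone, these were the 11th and the 40th to be listed. The files do not say by what the list is ordered. In runs of neighbouring places, such as 589 to 592 on chromosome 20 and 206 to 208 on chromosome X, peaks stood in order of position. Place within such a run thus follows position on the chromosome.

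**Figure D3:**
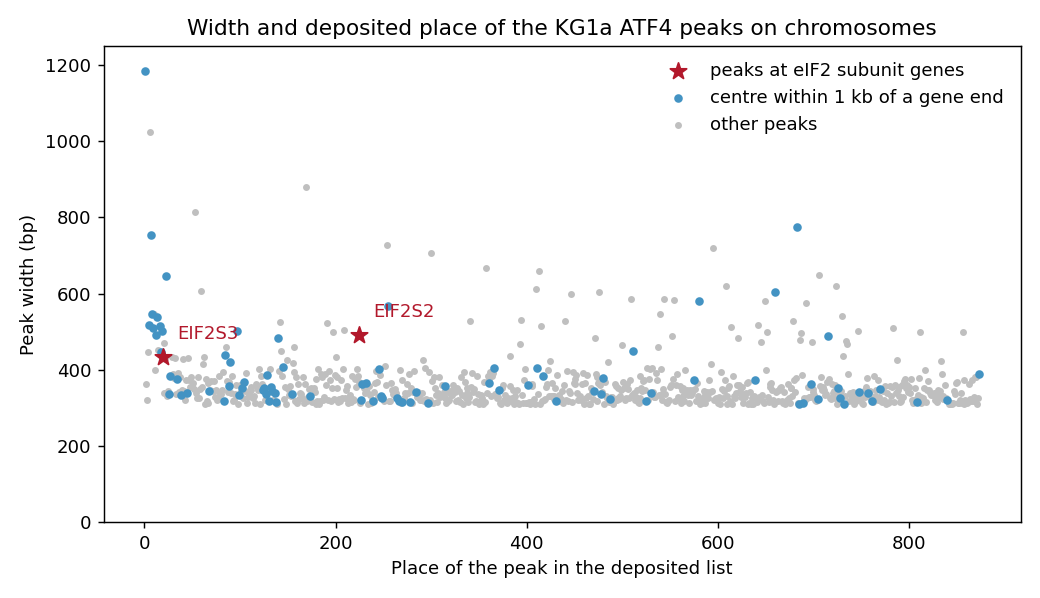
Width in bp of each of the 869 KG1a peaks on chromosomes against its place in the deposited list. Stars are the peaks at EIF2S3 and EIF2S2, blue points are peaks centred within 1 kb of a gene end (both stars are of that kind too) and grey points are the others. Both stars lie above the upper quartile of 371 bp, EIF2S3 near the start of the list at place 19 and EIF2S2 at place 224.

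Each of these peaks was the only one on its chromosome centred within 1 kb of a protein-coding gene end. Their place at a gene end was known when the genes were chosen, so this is a description. Of all 869 peaks on chromosomes, 89 were centred that close to a gene end. On chromosome X, which had 9 KG1a peaks, the 8 others lay farther from any gene end. They were 311 to 403 bp wide, narrower than the EIF2S3 peak, and stood in places 206 to 849. The nearest of them to EIF2S3 was 6.58 Mb from the gene. On chromosome 20, which had 24 peaks, the 23 others likewise lay away from gene ends, with widths of 310 to 666 bp, and 1 of them was wider than the EIF2S2 peak. The nearest of these was 1.21 Mb from EIF2S2. The chromosomes of the other 7 genes had between 3 and 11 gene-end peaks each, none of them at these genes.

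Gene-end peaks could be told apart as starts or far ends where the promoter table gives a strand. Of all protein-coding genes, 102 or 0.509% had a peak centred within 1 kb of an end, EIF2S2 and EIF2S3 among them, and 83 of the 102 had a strand. The peak was at the start in 69 genes and at the other end in 14 genes. Some neighbours shared a peak, and the 69 genes had 61 different peaks. The peak lay wholly before the start in 24 of these genes, EIF2S3 among them, covered it in 30 and lay wholly after it in 15. The near edge was 137 bp from the start at EIF2S3, and 7 to 638 bp with a median of 259 bp at the 23 others.

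The genes whose gene-end peak was most like these were ranked by the sum of the differences in width and in centre-to-end distance over the 102 genes. Nearest to EIF2S2 were YARS1 (547 bp wide, centre 15 bp from the end), NCK1 (405 bp, 30 bp) and AARS1 (539 bp, 72 bp). YARS1 and AARS1 encode the tRNA synthetases for tyrosine and alanine. Both share their peak with a neighbour. The YARS1 peak was centred 811 bp from the start of S100PBP, and the AARS1 peak also covered the start of DDX19B. Nearest to EIF2S3, whose peak centre was 353.5 bp from the gene end, were MTOR (449 bp wide, centre 366 bp from the end), RPAP2 (488 bp, 360.5 bp) and CA11 (356 bp, 327.5 bp). MTOR encodes the nutrient-sensing kinase. The peaks of MTOR and RPAP2 also lay wholly before the start, with near edges 142 bp and 117 bp away. CA11 is the gene beside the peak nearest to PPP1R15A. The likeness covers position and width in 1 list only.

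Copies of these genes elsewhere in the genome were looked at as well. They were sought by gene symbol, so copies under other names would be missed. This gave 7 pseudogenes of EIF2S2, 2 of EIF2S3 and 1 of EIF2AK1, and 0 of these 10 had a peak within 10 kb. Of all 17051 pseudogenes 0.616% had one, so a count of 0 in 10 shows nothing particular to these copies. The closest was EIF2S2P5, 39.7 kb from a peak. EIF2S3B, a protein-coding copy of EIF2S3 on chromosome 12, lay 2.20 Mb from its nearest peak. How the authors placed reads that match several copies is not stated in the labels or notes. Whether such reads entered the EIF2S2 or the EIF2S3 peak was not tested.

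Other genes of the pathway had peaks about as often as genes in general. Of 57 genes in 6 lists, 2 had one within 10 kb, beside 3.15% of all protein-coding genes. The first was NCK1, in the list of 9 kinase regulators, which encodes an SH2 and SH3 adaptor. Its peak, chr3:136861976-136862380, was 405 bp wide, stood in place 366 and covered the start of the gene, from 232 bp before it to 172 bp after it. The second was EIF4EBP1, in the list of 25 other initiation factors, which encodes an inhibitor of the cap-binding factor eIF4E. Its 371 bp peak, in place 73, lay inside the gene with its centre 1007 bp from the low-coordinate end.

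No gene of the remaining lists had a peak that close. They comprised 10 genes of eIF2 exchange, assembly and recycling, 4 alternative factors for initiator tRNA, 3 catalytic subunits of the phosphatase and 6 genes with regulatory upstream reading frames. All 5 subunits of eIF2B, the exchange factor that phosphorylated eIF2 blocks, were in the first of them. The nearest peak to any of them was 203 kb away, from EIF2B5, and the others lay between 0.741 Mb (EIF2B3) and 2.19 Mb (EIF2B1) from one. Of the catalytic subunits, PPP1CB was nearest at 627 kb. HSPA5, the chaperone that restrains PERK, lay 1.69 Mb from its nearest peak. The median distance of the 57 genes was 1.04 Mb, beside 0.961 Mb for all genes with a peak on their chromosome.

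Promoter sequences, from 250 bases before to 50 after the start, were at hand for 7 of the 9 genes (RefSeq, GRCh38.p14), and EIF2S2 and EIF2AK1 were not among them. The start here is that of the promoter table, which is the outer end of the gene span in 6 of the 7 but lies 681 bp inside the span of EIF2AK3, so that its whole promoter window is within the gene. The promoters were searched on both strands for TGATGNAA, a form of the composite site for C/EBP and ATF proteins. Also sought were TGACGTCA, the cyclic AMP response element, TGACGT, a shorter stretch that every TGACGTCA holds, and CCAAT. Of 22199 promoters of protein-coding genes, 2.69% held TGATGNAA, 2.26% TGACGTCA, 8.94% TGACGT and 34.7% CCAAT. Of the 57 promoters that touched a KG1a peak, 7 (12.3%) held TGATGNAA, 1 (1.75%) TGACGTCA, 7 (12.3%) TGACGT and 22 (38.6%) CCAAT. The EIF2S3 promoter, the only one of the 7 that touched a peak, held none of the 4 motifs. It shows 114 of the 434 bases of the peak, or 26.3%, and the rest of the peak was not read.

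Motifs stood in some of the promoters of these genes that touched no peak. PPP1R15A held TGACGTCA with its first base 58 bases before the start, and a further TGACGT 152 bases before it. PPP1R15B held TGATGCAA 227 bases before the start, TGACGT 101 bases before it and CCAAT 159 bases before it. EIF2AK3 held 4 CCAAT and EIF2AK2 held 2, on either strand, while EIF2S1 and EIF2AK4 held none of the motifs. The 250 bases before the start of both phosphatase subunit genes are shown because they carry ATF-type motifs without a listed peak. Capitals mark TGACGT and TGACGTCA in PPP1R15A (chr19:48872171-48872420, plus strand) and TGATGNAA in PPP1R15B (chr1:204411818-204412067, minus strand). A match of letters is not a binding site, and a list from 1 library at unknown depth does not show that a site was free of ATF4.
PPP1R15A: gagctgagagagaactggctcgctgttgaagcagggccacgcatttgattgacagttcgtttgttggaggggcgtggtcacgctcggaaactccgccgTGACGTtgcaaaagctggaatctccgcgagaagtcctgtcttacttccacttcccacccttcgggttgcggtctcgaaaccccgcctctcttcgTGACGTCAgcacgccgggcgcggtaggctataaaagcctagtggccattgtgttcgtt
PPP1R15B: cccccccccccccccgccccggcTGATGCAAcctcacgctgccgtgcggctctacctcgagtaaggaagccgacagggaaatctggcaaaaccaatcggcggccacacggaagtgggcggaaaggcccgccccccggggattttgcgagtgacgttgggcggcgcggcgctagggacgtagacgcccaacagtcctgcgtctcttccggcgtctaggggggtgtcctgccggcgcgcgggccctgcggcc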

How the data were processed

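The authors deposited 1 list of peak positions per cell source, each from a ChIP library against its input, per the labels. The submitters' processing notes name CASAVA 1.4, Bowtie2, MACS2, deepTools and the builds GRCh38 and GRCm38. These notes, as used here, state no peak threshold. Peak starts were read as counted from 0 and are printed counted from 1. Gene spans came from RefSeq (GRCh38.p14), whose table gives no strand; strands and promoters came from a RefSeq promoter table, which had a strand for 15843 of the 20037 protein-coding genes placed on chromosomes. An overlap of 1 base counted. Distances run from the gene span to the nearest peak edge, or from the peak centre to a gene end where stated. The outer end of the gene span was taken as the start, except in the motif search, which used the start of the promoter table. No test was made. The genes and lists were chosen with earlier results of these data known.

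The design had foreseen mouse orthologues, which were not analysed here. Genes named were the 9 genes, listed pathway genes with a peak within 10 kb, protein-coding genes within 10 kb of the EIF2S2 and EIF2S3 peaks, and for each of these peaks the 3 genes with the most similar gene-end peak. Genes beside the nearest peaks, RPS2P1, the copies of the genes and the pathway genes without a peak were named after their values were seen. So were S100PBP and DDX19B, the neighbours that share a peak with YARS1 and AARS1. The alternatives were other windows and overlaps and subsets of the list. The code, in Python 3.11.15 with pandas 2.3.3, was tested on simulated peaks.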

Additional observations from a re-analysis of the deposited data

How the results depend on the processing

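The count of 2 genes with a peak, EIF2S2 and EIF2S3, was found with windows of 1, 5 and 50 kb. It was the same with the peak centre in place of an overlap and with the widest 25% of peaks. Peak centres within 1 kb of a gene end gave it too. The share of all protein-coding genes under these settings ran from 0.509% (centre within 1 kb of an end) to 6.25% (50 kb). Both genes were chosen with their gene-end peaks known. The same count under the narrower windows, the peak-centre setting and the gene-end setting is therefore no independent check. A 50 kb window cannot lose a gene counted at 10 kb, so it shows only that no further gene of the set joined. Alternatives chosen after seeing the data gave 3 genes within 100 kb, where PPP1R15B joined and 9.93% of all genes had a peak, and 1 gene, EIF2S3, in the first 25% of the deposited order, where 0.923% of all genes had a peak. That part of the list ends at place 218, and the EIF2S2 peak is in place 224. For the 57 pathway genes the count was 2 within 1 and 5 kb. It was also 2 with the peak centre inside the window and with the widest 25% of peaks, both added after seeing the data. It became 4 within 50 kb (6.25% of all genes) and, added later, 4 within 100 kb (9.93%), where EIF3B (28.4 kb) and EIF6 (40.7 kb) joined. It became 1 in the first 25% of the order (EIF4EBP1, beside 0.923% of all genes) and 1 with peak centres within 1 kb of an end (NCK1, beside 0.509%), both also added after seeing the data. Mouse alternatives were not run. No paired analysis was possible because each group has 1 library and no result comes from a test. With unknown depth, an unlisted peak is not an absent one.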
